A study of Arabidopsis thaliana with 53 samples.

Results

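The Cellulose synthase-like G genes of Arabidopsis are CSLG1 (AT4G24010), CSLG2 (AT4G24000) and CSLG3 (AT4G23990), 3 of the 27501 genes counted. They were picked by name because CSLG3 had the largest fall among the genes called lower in BR-like dwarf leaves against leaves of relatives without the phenotype. All values of that contrast are therefore given as a description. The data were mature leaf mRNA libraries, 1 plant each, from 53 plants 32 days old that descended from seedlings grown on 160 µM etoposide, a poison of topoisomerase II that leaves DNA breaks, or on DMSO, its solvent.

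Of the etoposide plants, 6 were BR-like dwarf, 6 short-internode dwarf and 6 virescent, each line with 4 relatives that lacked the phenotype. A variegated line gave 1 white plant, 3 green plants with variegated progeny and 10 green plants without. The solvent controls were 9 DMSO plants from 3 lines. Etoposide plants were M3. The sources disagree on the DMSO plants, which are M2 by their labels and M3 by the study's methods, so a difference in generation may go with exposure. In the 3 lines with relatives, phenotypic plants came from 2 M2 families and relatives from another, so that phenotype and M2 family cannot be told apart. The 3 green plants with variegated progeny all came from M2 family 5A_58, as did 2 of the 10 without. Plants of an etoposide line descend from 1 treated M1 plant and may share its other mutations, and p-values measure only the spread between these plants. The sources disagree on the phenotype of virescent plant 1, and its label was kept.

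CSLG proteins belong to the cellulose synthase superfamily of membrane glycosyltransferases. The CESA members assemble at the plasma membrane and make cellulose, CSLA members make mannan backbones, CSLC members make the xyloglucan backbone, and CSLD members act in tip growth. In spinach and legumes, enzymes of the CSLG and CSLM branch attach glucuronic acid to triterpenoids during saponin synthesis, and the substrate of the Arabidopsis enzymes is not stated here.

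The 3 genes lie in a row on the forward strand of chromosome 4 (TAIR10.1), with 0 other annotated genes between them. CSLG3 is at chr4:12456342-12460753, CSLG2 at chr4:12461907-12465675 and CSLG1 at chr4:12466117-12469844, each with 5 exons. The gap between CSLG3 and CSLG2 is 1153 bases and that between CSLG2 and CSLG1 is 441 bases. The annotated transcripts are 2641 bases long for CSLG1, 2608 for CSLG2 and 2660 for CSLG3, and code for 760, 722 and 751 residues in that order. Coding sequences were 86.0% identical between CSLG1 and CSLG3, 85.3% between CSLG1 and CSLG2, and 84.5% between CSLG2 and CSLG3. The longest identical runs were 62, 68 and 58 bases for the same pairs. The deposited values of the members were whole numbers in all 53 libraries except for CSLG2 in 1, and the effect of shared sequence on them was not tested.

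The 250 bases before the annotated starts of CSLG2 and CSLG3 are shown because members that sit side by side did not have the same levels (TAIR10.1, RefSeq annotation, forward strand, 5′ to 3′). Capitals mark the G-box CACGTG, a sequence bound by bZIP and bHLH factors, which reads the same on both strands.
CSLG2, chr4:12461657-12461906: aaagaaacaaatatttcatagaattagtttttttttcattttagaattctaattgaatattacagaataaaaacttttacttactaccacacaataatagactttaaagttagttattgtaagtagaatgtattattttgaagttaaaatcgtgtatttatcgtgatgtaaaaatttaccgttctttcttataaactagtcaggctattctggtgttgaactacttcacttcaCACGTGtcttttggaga
CSLG3, chr4:12456092-12456341: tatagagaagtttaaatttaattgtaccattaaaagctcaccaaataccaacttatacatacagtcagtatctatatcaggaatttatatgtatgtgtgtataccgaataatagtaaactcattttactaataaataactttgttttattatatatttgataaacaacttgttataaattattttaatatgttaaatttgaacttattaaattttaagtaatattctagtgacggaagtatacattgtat
The G-box began 17 bases before the start of CSLG2, and CSLG3 held 0 in this window. Of 27443 protein-coding promoters of the same length, 6.49% held it. The letters TATAAA (or TTTATA) occurred 1 time before CSLG2 and 2 times before CSLG3, and in 47.3% of all promoters.

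All 3 members were low in leaves and uneven between plants. Levels are TMM-scaled CPM, the counts of a gene relative to those of its library, and libraries held 29739361 to 116654254 counts (median 47326147). Over the 53 libraries CSLG1 averaged 1.22 ± 1.13 CPM, CSLG2 2.07 ± 3.33 CPM and CSLG3 1.67 ± 2.31 CPM (SD). Only 16.6%, 21.1% and 19.1% of the genes kept after the low-count filter had a lower mean, in the same order. The coefficient of variation was 0.923, 1.61 and 1.38, and 72.1%, 89.6% and 86.3% of genes within 2-fold of each member's level varied less. Within the DMSO plants used in the fits it was 0.666, 1.53 and 0.479 (n = 8), and CSLG2 was at 0.985 without DMSO plant 8, which had 11.4 CPM.

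Per kb of transcript the medians over the 53 libraries were 0.361 CPM per kb for CSLG1, 0.284 for CSLG2 and 0.443 for CSLG3. Which member was highest per kb changed from plant to plant. It was CSLG1 in 16 libraries, CSLG2 in 20 and CSLG3 in 17, and among the DMSO plants each was highest in 3. CSLG1 was highest in 6 of 6 BR-like dwarf plants, against 0 of their 4 relatives, of which 2 had CSLG2 and 2 had CSLG3 highest. The low CSLG3 of these BR-like dwarf plants chose the members, so this order follows in part from the choice and is a description.

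**Figure D1:**
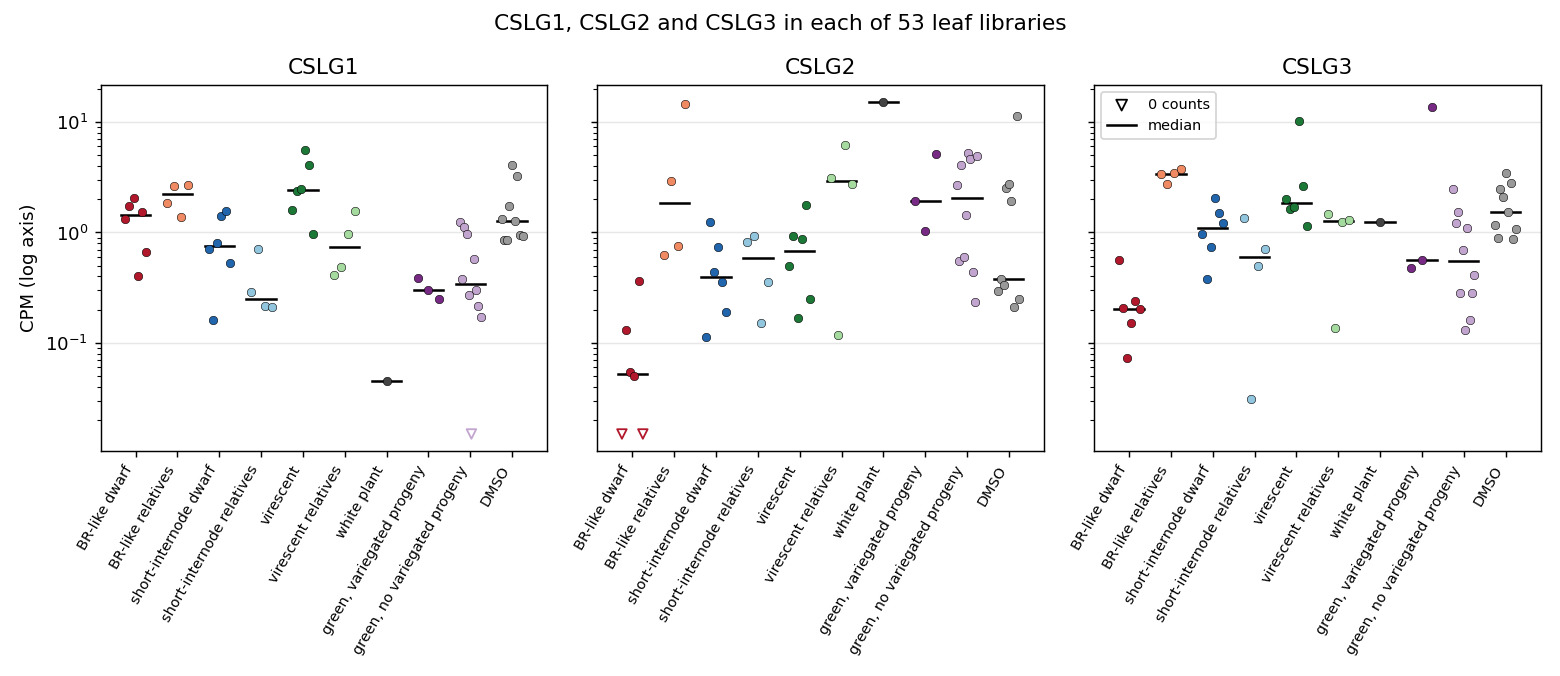
Level of each CSLG gene in each plant, in CPM on a log axis, by group, with each point 1 library, a line at each group's median and open triangles for 0 counts. CSLG3 in the 6 BR-like dwarf plants lies between 0.0726 and 0.566 CPM, under all 4 of their relatives (2.77 to 3.74 CPM), while CSLG1 in the same plants lies between 0.403 and 2.05 CPM.

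CSLG3 was low in every BR-like dwarf plant. It had 0.566, 0.206, 0.0726, 0.151, 0.240 and 0.204 CPM in BR-like dwarf plants 1 to 6 (lowest 0.0726, median 0.205, highest 0.566), against 3.36, 2.77, 3.45 and 3.74 CPM in their relatives and 0.868 to 3.45 CPM in DMSO plants (median 1.52). BR-like dwarf plants overlapped neither their relatives nor the DMSO plants. In counts these were 4 to 26 per BR-like dwarf library, 67 in all, against 138 to 199 per library of the relatives.

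Among the 19515 genes tested in this line, 17 were called in BR-like dwarf plants against relatives (0.0871%), in edgeR's quasi-likelihood test with an adjusted p under 0.01 and more than a 2-fold change. CSLG3 was 1 of the 8 called lower and had the largest fall of these, with a log2 fold change of -3.79 (13.9-fold lower), which is what chose the members. Just inside the rule's limit stood CSLG3, and just outside it were CRK36, a cysteine-rich receptor-like kinase, at -2.94 and AS1, a repressor of KNOX genes in leaves, at -2.62. Without regard to the test, CSLG2 ranked 17 by size of fall, CSLG3 54 and CSLG1 1345.

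CSLG2 was lower still in most of the same plants. BR-like dwarf plants 1 to 6 had 0, 0.131, 0.0544, 0.0504, 0.360 and 0 CPM, against 0.621, 2.94, 0.750 and 14.6 CPM in their relatives and 0.210 to 11.4 CPM in DMSO plants (median 0.382). All 6 lay under the lowest relative, and they overlapped the DMSO plants only through plant 5. A count of 0 allows up to 3 counts, which is 0.0653 CPM in plant 1 and 0.0611 CPM in plant 6. The 6 libraries held 27 CSLG2 counts together.

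The log2 fold change of CSLG2 was -5.56 against relatives (47.3-fold lower) and was not called. It was -3.84 without relative 4, whose 14.6 CPM was far above the other relatives. Non-overlap of this kind was common: every BR-like dwarf plant was below every relative in 2.01% of the genes tested.

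CSLG1, the third gene of the row, did not share the low levels. It had 1.33, 1.74, 2.05, 0.403, 1.54 and 0.672 CPM in BR-like dwarf plants, against 1.86, 2.64, 1.38 and 2.71 CPM in their relatives and 0.859 to 4.08 CPM in DMSO plants (median 1.28). The groups overlapped. Its log2 fold change against relatives was -0.73 (1.66-fold lower), so that over a stretch of 13503 bases the members were 13.9-fold, 47.3-fold and 1.66-fold lower from first to last.

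Against the DMSO plants, the log2 fold changes in BR-like dwarf plants were -0.48 for CSLG1, -4.63 for CSLG2 and -3.0 for CSLG3, where 2.67% of genes were called. Every BR-like dwarf plant was below every DMSO plant in 1.3% of genes, CSLG3 among them. The relatives against the same DMSO plants gave 0.25, 0.93 and 0.79, in a comparison where edgeR called 0 of 19515 genes (0%), 1573 genes had an unadjusted p under 0.05, and DESeq2 called 11. These comparisons share their DMSO plants. Of all 53 libraries, 5 of the 10 lowest CSLG3 libraries of the series and 5 of the 10 lowest CSLG2 libraries were BR-like dwarf plants, and 0 of the 10 lowest for CSLG1.

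Low CSLG3 was nonetheless met outside the BR-like dwarf plants. Of the other 47 libraries, 11 had CSLG3 at or below the highest BR-like dwarf plant and 4 at or below their median. The lowest CSLG3 level of all was 0.0309 CPM, in short-internode dwarf relative 2. For CSLG2, 13 of the 47 were at or below the highest BR-like dwarf plant, and 0 at or below their median.

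The M2 families did not divide the low plants. CSLG3 averaged 0.282 ± 0.255 CPM in BR-like dwarf family 1A_14 and 0.198 ± 0.0448 CPM in family 1A_20 (SD, n = 3 each), against 3.33 ± 0.408 CPM in the relatives' family 1A_4 (n = 4). CSLG1 averaged 1.71 ± 0.362 CPM in 1A_14 and 0.871 ± 0.593 CPM in 1A_20, against 2.15 ± 0.642 CPM in 1A_4. Plants of both phenotypic families were low in CSLG3 and CSLG2 alike.

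A single BR-like dwarf plant stood apart in other genes of the line but not in CSLG2 or CSLG3. KNAT1, a class I KNOX homeobox gene, and LOB, a lateral organ boundary gene, were at 0.705 and 0 CPM in plant 4, against 14.5 to 20.3 and 28.9 to 38.0 CPM in the other 5 BR-like dwarf plants. AS1 was at 8.55 to 20 CPM in all 6, against 61.7 to 104 CPM in their relatives. Plant 4 had 0.151 CPM of CSLG3 and 0.0504 CPM of CSLG2, within the range of the others, and the lowest CSLG1 of the group (0.403 CPM). Without plant 4 the log2 fold changes against relatives were -0.54 for CSLG1, -5.43 for CSLG2 and -3.69 for CSLG3.

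Floral markers (AG, AP3, PI and SEP3, 4 of 4 detected) summed to 2.45 to 7.05 CPM in BR-like dwarf leaves (median 3.87). They were at 1.43 to 2.80 CPM in relatives and 0.603 to 2.79 CPM in DMSO plants, and both groups overlapped the BR-like dwarf plants. Such levels were not particular to that group. Virescent relatives had 2.42 to 5.31 CPM (median 3.90), and green plants reached 7.46 CPM with and 6.24 CPM without variegated progeny. The anther markers ATA7 and LTP12 and the seed markers CRA1, CRU3 and OLEO1 were at 0 in all of the BR-like dwarf libraries. Leaf markers (RBCS1A, RCA, LHCB2.1, CA1 and PSBO1, 5 of 5 detected) summed to 17652 to 31519 CPM in BR-like dwarf leaves, against 17044 to 41337 CPM in relatives. The part of these in the CSLG levels was not tested, and in bulk leaves fewer cells of a type and less RNA per cell cannot be told apart.

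**Figure D2:**
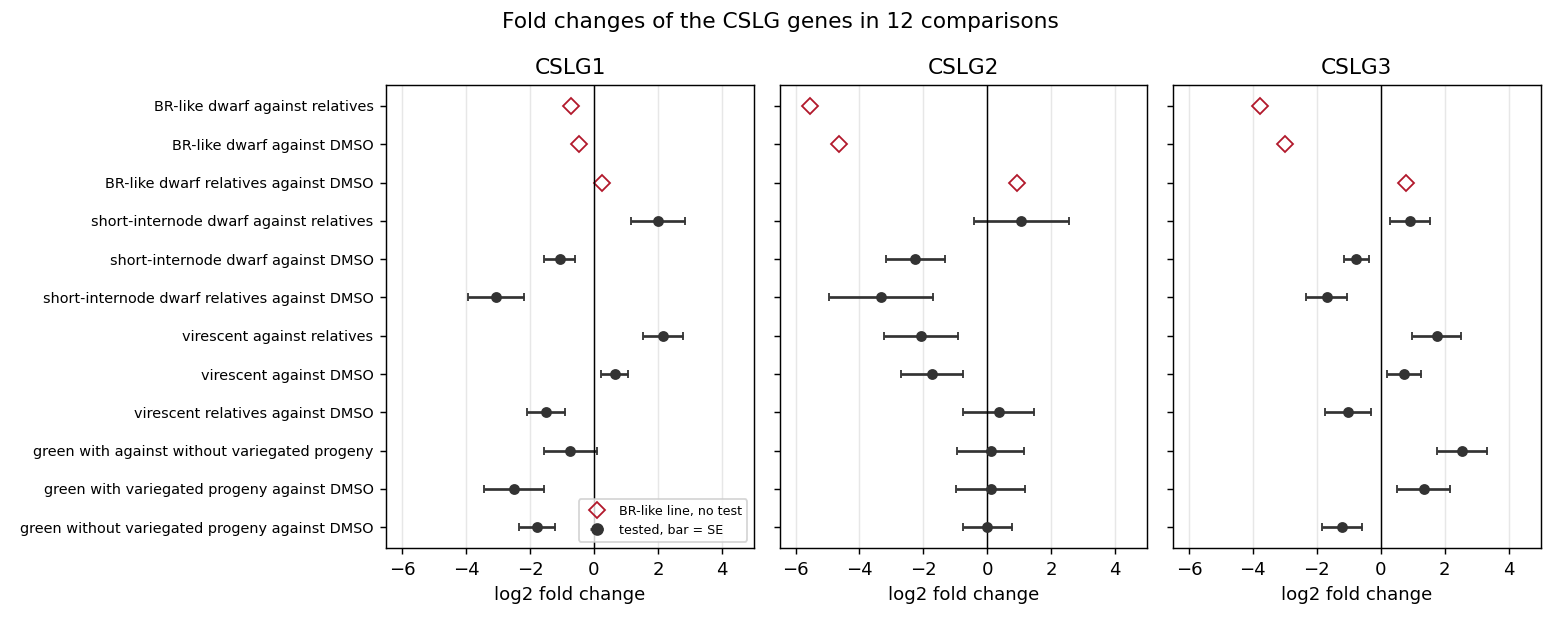
Log2 fold change of each CSLG gene in each of the 12 comparisons (horizontal axis), with a standard error bar in the 9 comparisons that did not choose the members and none in the BR-like line. CSLG1 lies at 2.16 in virescent plants against relatives and at -1.77 in green plants without variegated progeny against DMSO plants, and no member passed both limits in any of the 9.

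In the short-internode dwarf line, which did not choose the members, CSLG1 was under every DMSO plant in 4 plants of 6. CSLG1 had 0.706, 0.162, 0.804, 1.41, 1.57 and 0.532 CPM in short-internode dwarf plants (median 0.755), against 0.288, 0.711, 0.215 and 0.212 CPM in their relatives and 0.859 to 4.08 CPM in DMSO plants. CSLG2 had 0.113 to 1.24 CPM (median 0.396), against 0.151 to 0.927 CPM in relatives and a median of 0.382 CPM in the 9 DMSO plants, or 1.12 CPM without DMSO plant 2, which was left out of the fits. CSLG3 had 0.377 to 2.05 CPM (median 1.09), against 1.35, 0.0309, 0.496 and 0.706 CPM in relatives.

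Short-internode dwarf plants overlapped their relatives and the DMSO plants in all 3 genes. All 3 passed the low-count filter, here and in every other fit. Against DMSO plants the log2 fold changes in short-internode dwarf plants were -1.07 (SE 0.482) for CSLG1, -2.25 (SE 0.919) for CSLG2 and -0.76 (SE 0.386) for CSLG3, and edgeR called 0 of the 3 (adjusted p 0.131, 0.0971 and 0.178), where it called 1.56% of all genes. Unadjusted p was below 0.05 for 2 of them, and DESeq2 called 0.

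Against relatives, with relatives 1 and 2 left out of the fit, the log2 fold changes were 2.00 (SE 0.855), 1.06 (SE 1.49) and 0.93 (SE 0.625), with edgeR adjusted p of 0.503, 0.895 and 0.707 and 0 of 3 called (0.026% of all genes called). Unadjusted p was below 0.05 for 1, and DESeq2 called 0. With all 4 relatives the value of CSLG2 was -0.13, so its direction rested on which relatives were kept.

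The short-internode dwarf relatives themselves were low in CSLG1. All 4 lay under the lowest DMSO plant, as did 0.728% of genes over these libraries. In the fit without relatives 1 and 2 the log2 fold change against DMSO plants was -3.07 (SE 0.887), with an edgeR adjusted p of 0.126 and a DESeq2 adjusted p of 0.00706. CSLG2 was at -3.32 (SE 1.63) and CSLG3 at -1.69 (SE 0.638), with edgeR adjusted p of 0.288 and 0.193. EdgeR called 0 of the 3, and 0 of 19236 genes (0%). Among all genes 3526 had an unadjusted p below 0.05 and DESeq2 called 143. Among the members 2 had one below 0.05 and DESeq2 called 1.

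Virescent leaves held the highest CSLG1 levels. CSLG1 had 1.61, 2.36, 2.46, 5.52, 4.07 and 0.973 CPM in virescent plants (median 2.41), against 0.416, 0.490, 0.974 and 1.58 CPM in their relatives and 0.859 to 4.08 CPM in DMSO plants. Virescent plants overlapped relatives at the low end and DMSO plants over nearly their whole range. With relative 4 out of the fit, the log2 fold change of CSLG1 against relatives was 2.16 (SE 0.636), with an edgeR adjusted p of 0.0293, short of the 0.01 set here, and a DESeq2 adjusted p of 0.00222.

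With all 4 relatives the CSLG1 value was 1.71 (edgeR adjusted p 0.0409), and without virescent plant 1, whose phenotype the sources give in 2 ways, it was 2.28. CSLG3 had 2.02, 1.64, 1.71, 10.1, 2.64 and 1.15 CPM in virescent plants (median 1.87), against 1.46, 0.137, 1.24 and 1.30 CPM in relatives, a log2 fold change of 1.75 (SE 0.757, edgeR adjusted p 0.118). Virescent plant 4 was the highest of its group in both CSLG1 and CSLG3.

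CSLG2 pointed the other way in this line, without passing the test. It had 0.169 to 1.77 CPM in virescent plants (median 0.680), against 3.10, 0.118, 6.16 and 2.73 CPM in relatives, a log2 fold change of -2.08 (SE 1.15, edgeR adjusted p 0.217). So edgeR called 0 of the 3 in virescent plants against relatives, where 2.95% of all genes were called. Unadjusted p was below 0.05 for 2, and DESeq2 called 1, CSLG1.

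Against the DMSO plants, virescent plants gave 0.65 (SE 0.428), -1.72 (SE 0.968) and 0.73 (SE 0.525) for CSLG1, CSLG2 and CSLG3, with edgeR adjusted p of 0.294, 0.215 and 0.334. EdgeR called 0 of 3 (2.73% of all genes). Unadjusted p was under 0.05 for 0 of them, and DESeq2 called 0. The CSLG3 value was -0.07 without virescent plant 4. Virescent relatives against DMSO plants gave -1.51 (SE 0.599), 0.36 (SE 1.11) and -1.02 (SE 0.709), with edgeR adjusted p of 0.180, 0.899 and 0.473 and 0 of 3 called (0.223% of all genes). Unadjusted p was under 0.05 for 1, CSLG1, and DESeq2 called 0.

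In the variegated line, CSLG1 was low in the green plants and in the white one. Green plants with variegated progeny had 0.387, 0.304 and 0.252 CPM and green plants without had 0 to 1.25 CPM (median 0.340), against 0.859 to 4.08 CPM in DMSO plants. All 3 green plants with variegated progeny lay under every DMSO plant (3.94% of genes did so), and those without overlapped them. A single green plant without variegated progeny, plant 6, had 0 counts, which allows up to 0.0660 CPM.

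Green plants without variegated progeny against DMSO plants gave a CSLG1 log2 fold change of -1.77 (SE 0.564), with an edgeR adjusted p of 0.0434 and a DESeq2 adjusted p of 0.00817. Green plants with variegated progeny gave -2.51 (SE 0.936, edgeR adjusted p 0.101). CSLG2 gave 0.00138 (SE 0.763) and 0.10 (SE 1.08) in the same comparisons, and CSLG3 -1.21 (SE 0.621) and 1.34 (SE 0.831). EdgeR called 0 of 3 members in each comparison, where it called 0.222% of all genes without and 0.484% with variegated progeny. Unadjusted p was below 0.05 for 1 member in each, CSLG1, and DESeq2 called it only in plants without variegated progeny.

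The difference in CSLG3 between the green groups came down to a single plant. Green plants with variegated progeny had 0.479, 0.564 and 13.8 CPM, the last the highest CSLG3 level of the series, against 0.132 to 2.48 CPM in green plants without (median 0.556). The groups overlapped. The log2 fold change was 2.54 (SE 0.771, edgeR adjusted p 0.115), and -0.67 (adjusted p 0.971) without plant 3. Against DMSO plants the value of 1.34 likewise became -1.87.

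CSLG1 was at -0.74 (SE 0.829) and CSLG2 at 0.10 (SE 1.05) in green plants with against green plants without variegated progeny, with edgeR adjusted p of 0.867 and 0.987. EdgeR called 0 of 3, where 0.822% of all genes were called. Unadjusted p was below 0.05 for 1, CSLG3, and DESeq2 called 0.

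These values mix M2 families. Within family 5A_58, CSLG1 had 0.387, 0.304 and 0.252 CPM in green plants with variegated progeny, against 0.218 and 0.170 CPM in those without, so that its direction turned. In a fit against these 2 plants, made after seeing the data, the log2 fold changes were 0.67 (SE 1.11) for CSLG1, 0.0241 (SE 1.51) for CSLG2 and 3.79 (SE 1.4) for CSLG3, with edgeR adjusted p of 1, 1 and 0.653, and edgeR called 0 genes in all, with 964 at an unadjusted p under 0.05.

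The white plant, a single library with no test, had the highest CSLG2 level of the series and the second lowest CSLG1 level. CSLG2 was at 15.3 CPM (1018 counts, 95% Wilson interval 14.4 to 16.3 CPM), 8.01 times the median of the 13 green plants, which had 0.234 to 5.28 CPM. CSLG1 was at 0.0452 CPM (3 counts, 0.0154 to 0.133 CPM), against 0 to 1.25 CPM in green plants. CSLG3 was at 1.24 CPM (82 counts, 0.996 to 1.53 CPM), in the middle of the series. These intervals cover counting error only. How many of all genes had their highest or near lowest level in this library was not counted, so these ranks are not shown to be particular to the CSLG genes.

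The white library differed from the others in its markers too. IM, a plastid terminal oxidase gene, was at 12.6 CPM, against 31.8 to 68.1 CPM in green plants. Leaf markers summed to 7790 CPM, against 13508 to 28258 CPM in green plants, and were the lowest of the series. ATA7 and LTP12, 2 of the 3 anther markers listed, summed to 15.7 CPM, with 0 in each other library, and floral markers to 18.8 CPM, against 0.387 to 7.46 CPM in green plants. Their part in the CSLG levels was not tested. For CSLG1, 51 libraries were above the white plant and 1 below.

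Ordered by group mean, the levels formed nearly continuous runs. CSLG3 ran from 0.240 CPM in BR-like dwarf plants through short-internode dwarf relatives (0.646), green plants without variegated progeny (0.831), virescent relatives (1.03), short-internode dwarf plants (1.14), the white plant (1.24), DMSO plants (1.81), virescent plants (3.21) and BR-like dwarf relatives (3.33) to green plants with variegated progeny (4.95). The last place rested on plant 3 of that group (13.8 CPM). By median the group was at 0.564 CPM, beside 0.556 CPM in green plants without variegated progeny. All neighbours in the order of means overlapped. In CSLG1 and CSLG2 the same held except for the white plant, which was the lowest group in CSLG1 and the highest in CSLG2 and did not overlap its neighbour in either.

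CSLG2 had group means of 0.0994 CPM in BR-like dwarf plants, 0.512 CPM in short-internode dwarf plants, 0.563 CPM in short-internode dwarf relatives and 0.746 CPM in virescent plants, below the 2.23 CPM of DMSO plants, with 4.73 CPM in BR-like dwarf relatives. By medians the DMSO plants (0.382 CPM) lay below all of these but the BR-like dwarf plants. Without DMSO plant 2, which was left out of the fits, the DMSO median was 1.12 CPM. That was above the medians of short-internode dwarf plants (0.396 CPM), their relatives (0.587 CPM) and virescent plants (0.680 CPM), so this order turned on a single DMSO plant. CSLG1 was ordered otherwise, with 1.29 CPM in BR-like dwarf plants, between 0.865 CPM in virescent relatives and 1.70 CPM in DMSO plants. The DMSO plants of 3 lines were uneven in CSLG2. Line C13 had 0.295 to 0.382 CPM, line C23 had 1.92 to 2.77 CPM, and line C4_8 had 0.21, 0.25 and 11.4 CPM. C13 and C23 did not overlap, and C4_8 spanned both through DMSO plant 8. The share of all genes without overlap between C13 and C23 was not counted, so the gap is not shown to be particular to CSLG2. No test was run on these lines.

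Differences between the lines that did not choose the members were tested as differences of log2 fold changes in a single fit of 20329 genes, with the variegated line entering through green plants with against without variegated progeny, which measures no leaf phenotype. None of 9 such differences passed the threshold in edgeR, 2 had an unadjusted p below 0.05, and no other tool was run. CSLG1 came nearest: its change in virescent plants against relatives exceeded that in green plants with against without variegated progeny by 2.90 (SE 1.04, edgeR adjusted p 0.0603). The same change in short-internode dwarf plants exceeded it by 2.72 (SE 1.18, adjusted p 0.344). With green plants without variegated progeny from family 5A_58 alone, a choice made after seeing the data, these differences were 1.5 (adjusted p 0.479) and 1.32 (adjusted p 0.943). CSLG2 in virescent plants minus short-internode dwarf plants was -3.12 (SE 1.92, adjusted p 0.392).

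**Figure D3:**
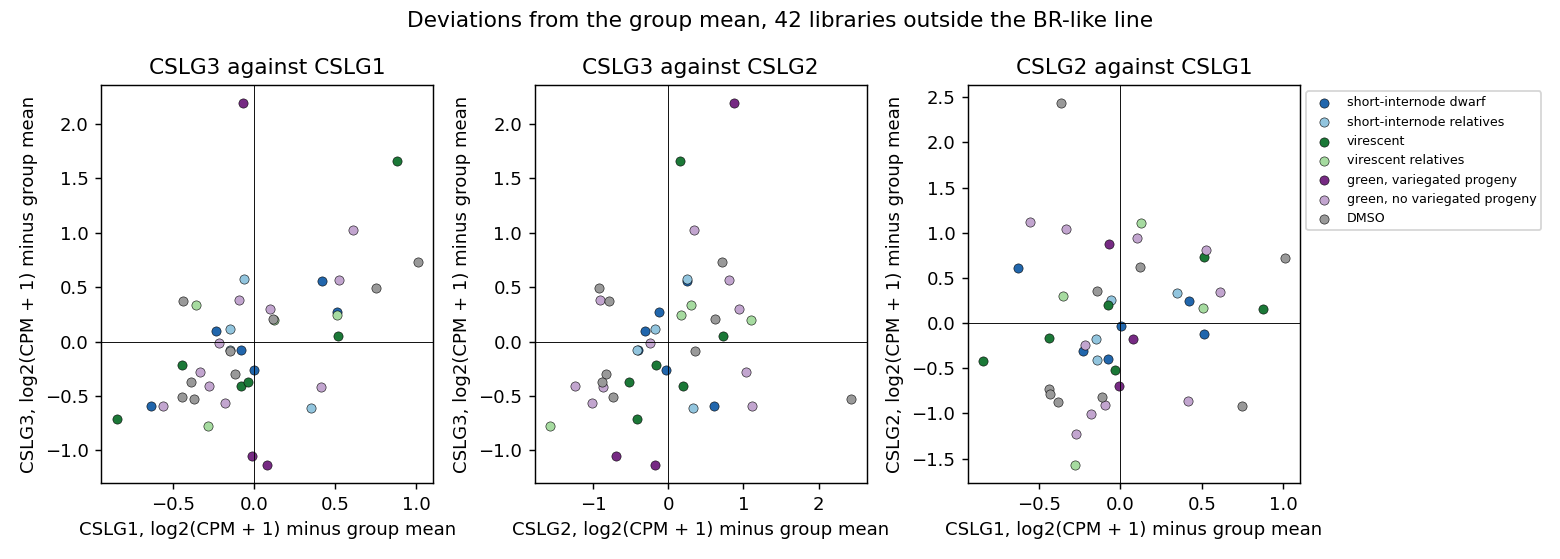
Deviation of each plant from its group mean, in log2(CPM + 1), for each pair of CSLG genes, over the 42 libraries outside the BR-like line and the white plant. CSLG1 and CSLG3 deviate together (r 0.504), CSLG1 and CSLG2 little (r 0.13).

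Within groups, CSLG1 and CSLG3, the outer genes of the row, varied together, and CSLG2 between them did not follow CSLG1. Over the 42 libraries outside the BR-like line and the white plant, deviations of log2(CPM + 1) from group means gave r 0.504 and rho 0.518 for CSLG1 with CSLG3. Permutation p over 3 pairs, two-sided and adjusted, was 0.00015 for r and 0.00114 for rho. Without the 2 libraries farthest from the median of CSLG1, r was 0.387. For CSLG1 with CSLG2, r was 0.13 and rho 0.204 (adjusted permutation p 0.479 and 0.227), and r was 0.0683 without the 2 farthest. For CSLG2 with CSLG3, r was 0.267 and rho 0.287 (0.137 and 0.134), and 0.339 without them.

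The relation of CSLG1 with CSLG3 was seen in several groups. As a description, r was 0.853 in short-internode dwarf plants, 0.836 in virescent plants, 0.790 in DMSO plants and 0.711 in green plants without variegated progeny, and 0.00784 in BR-like dwarf plants. Centred on M2 families in place of groups, a choice made after seeing the data, r was 0.396 and rho 0.417 (adjusted permutation p 0.0465 and 0.0493), and 0.292 without the 2 farthest libraries. The most alike coding sequences of the row are those of CSLG1 and CSLG3, and the part of shared reads in this relation was not tested.

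The tested genes on either side of the row changed less than any member in BR-like dwarf plants against relatives. Whether they vary with the members was not tested. ARF9, an auxin response factor gene just before CSLG3, averaged 29.8 CPM and had a log2 fold change of -0.06 in BR-like dwarf plants against relatives (edgeR adjusted p 0.833). After CSLG1, AT4G24015 was at -0.45 (adjusted p 0.440) and NLP7, a nitrate response regulator, at -0.000248 (adjusted p 1). EdgeR called none of these 3 genes in the 12 comparisons, with an unadjusted p below 0.05 in 5 of 36 fits. The smallest adjusted p was 0.0143, for AT4G24015 in virescent plants against relatives (-1.02). The further neighbours AT4G23960, AT4G23970 and AT4G24030 were too low to test.

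Each member kept company with other genes. Likeness was measured as Pearson r of log2(CPM + 1) over the 53 libraries among 20392 genes, as a description, where the median gene had r near 0 with each member. The 53 include the BR-like line, whose CSLG3 values chose the members, so these r follow in part from the choice. CSLG2 was most like NIT2 (r 0.862), a nitrilase gene, TI1 (0.851), a trypsin inhibitor gene, GSTU8 (0.844), a glutathione transferase gene, SAG13 (0.792), a senescence-associated gene, and ELI3-2 (0.756), an elicitor-activated gene. These r remained between 0.737 and 0.845 after removing group means over 52 libraries.

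NIT2 was highest in the white plant, as CSLG2 was, but its lowest plants were spread over several groups. It was at 529 CPM in the white plant, 0.0407 to 1.11 CPM in BR-like dwarf plants (median 0.240), against 0 to 57.2 CPM in their relatives and 0.0421 to 17.8 CPM in DMSO plants. Virescent plants (0.0588 CPM) and short-internode dwarf plants (0.215 CPM) had lower medians. SAG13 was at 28.5 CPM in the white plant and at 0.127 to 1.61 CPM in BR-like dwarf plants, against 0.736 to 50.3 CPM in their relatives. The groups overlapped in both genes. The 3 salicylate markers did not vary alike with CSLG2: r was 0.450 for PR1 (0.560 within groups), 0.178 for PR2 (0.297) and -0.0941 for PR5 (-0.0143).

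**Figure D4:**
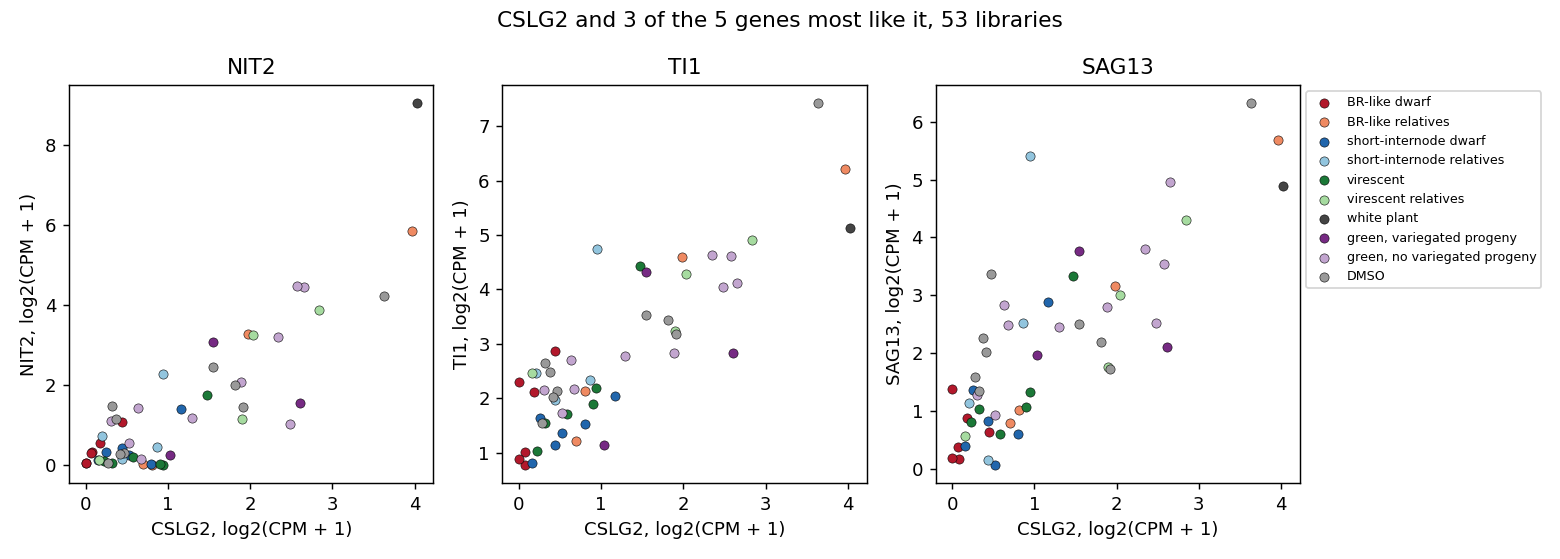
Level of CSLG2 (horizontal axis) against NIT2, TI1 and SAG13, 3 of the 5 genes most like it, in log2(CPM + 1), with each point 1 of the 53 libraries, coloured by group. BR-like dwarf plants lie at the low end of CSLG2, and the white plant, with 15.3 CPM of CSLG2 and 529 CPM of NIT2, at the high end.

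CSLG1 was most like AT5G01790 (r 0.833), AT3G17120 (0.804), AT4G13990 (0.803), TRM11 (0.792) and TBL26 (0.785), the last a member of a family of polysaccharide acetyltransferases. After removing group means these r were lower, at 0.59, 0.67, 0.545, 0.533 and 0.705 in the same order. AT5G01790 was at 15 to 22.4 CPM in virescent plants, against 2.65 to 4.74 CPM in their relatives, and at 0.709 CPM in the white plant. CSLG1 also went with the jasmonate response genes LOX2 (r 0.493, within groups 0.533), VSP2 (0.496, 0.456) and VSP1 (0.424, 0.438), and against SEN1, a gene of dark and ageing leaves (-0.683, -0.465), while SAG13 had r -0.142 (0.0358).

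CSLG3 was most like AT4G15620 (r 0.794), and its nearest genes included AT2G40130 (0.641), NUDT24 (0.632), a Nudix hydrolase gene, and LHCB4.3 (0.632), a light-harvesting protein gene. Within groups these r were 0.802, 0.477, 0.631 and 0.566 in the same order. The r of CSLG3 with AS1 was 0.438 over the 53 libraries and 0.0521 within groups. Both genes were called lower in the contrast that chose the members, and the r over all libraries includes those plants. No gene was among the 5 nearest of more than 1 member.

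As a list, the other genes of the superfamily had a median near that of all genes in BR-like dwarf plants, with CSLA1 the member nearest to CSLG3 in size of change. Of 37 CESA and other CSL genes, 31 were tested in BR-like dwarf plants against relatives. EdgeR called 0 (0.0871% of all genes), 4 had an unadjusted p below 0.05, DESeq2 called 1, and their median log2 fold change was -0.05, against -0.02 over all genes. The 2 of largest absolute change were CSLA1, a mannan synthase family gene, at -3.24 (SE 0.892, edgeR adjusted p 0.0677), and CSLA15 at -1.57 (adjusted p 0.528). CSLA1 was at 0.755 to 2.49 CPM in BR-like dwarf plants, against 2.20 to 33.4 CPM in their relatives. The groups overlapped, and CSLA1 is the gene that DESeq2 called.

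In the virescent line edgeR called several of these listed genes and 0 of the 3 CSLG genes. CSLG1 nonetheless changed by 2.16 in the same comparison, and DESeq2 called it. A difference between the CSLG genes and the listed genes was not tested. Of 31 listed genes tested, 4 were called higher and 1 lower in virescent plants against relatives. Their median was 0.70, against -0.01 over all genes. CSLA9, a glucomannan synthase gene, averaged 44.5 ± 13.0 CPM in virescent plants and 4.34 ± 1.61 CPM in relatives (SD, n = 6 and 3), a log2 fold change of 3.35 (edgeR adjusted p 0.00169). CSLC5, a xyloglucan backbone synthase family gene, averaged 44.7 ± 8.72 CPM in virescent plants and 10.9 ± 2.83 CPM in relatives, a change of 2.04 (edgeR adjusted p 0.00057).

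CSLA2 (1.58) and CESA5 (1.05), a primary wall cellulose synthase gene, also rose, and CSLB4 fell by 1.12 on the log2 scale (edgeR adjusted p 0.00657, 0.00427 and 0.00626). Of these 5 calls only that of CSLC5 survived leaving out each library in turn. Without virescent relative 1, which had the largest effect, edgeR adjusted p was 0.0169 for CSLA9, 0.0360 for CESA5, 0.0489 for CSLA2 and 0.0357 for CSLB4.

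Against DMSO plants, CSLB3 fell in both virescent and short-internode dwarf plants. It averaged 2.1 ± 0.93 CPM in virescent plants and 14.6 ± 7.10 CPM in DMSO plants (SD, n = 6 and 8), a log2 fold change of -2.80 (edgeR adjusted p 0.000163). In short-internode dwarf plants, at 2.75 ± 0.576 CPM, it was -2.41 (edgeR adjusted p 0.000939). Virescent plants were also lower than DMSO plants in CSLB4 (-1.91, edgeR adjusted p 1.85e-05) and CSLE1 (-1.03, adjusted p 0.0061). CSLB3 was low in relatives as well, at 4.18 ± 1.71 CPM in those of the BR-like line, 4.93 ± 0.21 CPM in those of the short-internode dwarf line and 5.83 ± 0.894 CPM in those of the virescent line (SD, n = 4, 2 and 3). Against DMSO plants its log2 fold changes there were -1.81, -1.57 and -1.32 (edgeR adjusted p 0.236, 0.156 and 0.126), of which DESeq2 called the first, and in BR-like dwarf plants, at 5.38 ± 1.58 CPM, it was -1.45 (edgeR adjusted p 0.0134), which DESeq2 called. The CSLE1 call was lost in 9 of 17 fits without 1 library, with adjusted p up to 0.0185.

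In green plants with variegated progeny against DMSO plants, CSLD2, a gene of tip growth, was called higher (1.79, edgeR adjusted p 0.00686). The call was lost in 9 of 21 fits without 1 library, with all labelled libraries and with the replicate block. The largest adjusted p came without plant 2 of the green plants with variegated progeny (0.76, edgeR adjusted p 0.111). EdgeR called 0 of the listed genes in 8 of the 12 comparisons, where 0 to 11 had an unadjusted p below 0.05 and DESeq2 called 0 to 3. The medians of the list lay between -0.48 and 0.70 over the 12 comparisons, and those of all genes between -0.04 and 0.02.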

How the data were processed

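Leaf mRNA was sequenced from stranded libraries of single plants, and groups were taken from the sample labels. The authors trimmed reads with Trim Galore and made estimated counts with Salmon against Araport11 transcripts with Col-CEN v1.2 as decoy. The deposited table holds these estimated counts per gene without normalization, and the versions are not given in the sources used here. Of its values, 9.266% were not whole and were rounded. The deposited signal column of the authors' DESeq2 tables (the mean normalized count) served only to find 4 of the 5 libraries the authors left out: DMSO 2, short-internode dwarf relatives 1 and 2, and virescent relative 4. The fifth was not identified and may be in the variegated line. The authors' own fold changes and p-values in those tables were not used.

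Levels are CPM with TMM factors over 53 libraries. Genes were tested with edgeR 4.0.16 (R 4.3.3, quasi-likelihood, robust off, Benjamini-Hochberg adjustment over all genes tested), without the 4 libraries, where at least 4 libraries of a fit had 10 normalized counts. Each fit held the groups of a line and the DMSO plants. The limits were an adjusted p of 0.01 and an absolute log2 fold change of 1, with a prior count of 0.125. Standard errors were taken as the unshrunk log2 fold change over the square root of F. The fits were tested on simulated data. DESeq2 1.42.0, median-ratio factors, no filter, 1 fit over all groups, all labelled libraries, a replicate block and leaving out each library were the alternatives. Correlations used 100000 permutations within groups. A count of 0 was taken to allow 3 counts, and Wilson intervals are at 95%, for counting error only.

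The members and lists were chosen with earlier results of these data known. Genes named are the 3 members, the 5 genes most like each by Pearson r, the 3 genes on each side, the listed CESA and CSL genes called or of the 2 largest changes in BR-like dwarf plants, and AS1, KNAT1, LOB and IM. Marker genes are named where their levels stand beside a result. A gene among those most like CSLG3 and the sequence before CSLG1 are not reported here. Reference sequences are from TAIR10.1 (RefSeq), in which 27391 of 27501 genes were found.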

Additional observations from a re-analysis of the deposited data

Results flagged for a closer look

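In 24 groups of 4 to 10 plants, 1 for each gene and group, a plant stood apart from the rest of its group by Dixon's test in 7. The test's rate of about 1 in 20 holds for normally distributed values. CPM of these low and uneven genes need not follow it, so the 7 are a description and not a measured excess. CSLG2 accounted for 3 of these. It was at 14.6 CPM in BR-like dwarf relative 4, at 11.4 CPM in DMSO plant 8 and at 0.36 CPM in BR-like dwarf plant 5, each the highest of its group. CSLG3 was at 10.1 CPM in virescent plant 4 and at 0.566 CPM in BR-like dwarf plant 1, again the highest, and at 0.137 CPM in virescent relative 2, the lowest. CSLG1 was at 0.711 CPM in short-internode dwarf relative 2, the highest of the 4.

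The white plant of the variegated line, which entered no comparison, had CSLG2 at 15.3 CPM, above the 5.28 CPM of the highest green plant. It is a single library, and the share of all genes that were highest in it was not counted.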

How the results depend on the processing

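Of 27 member values in the 9 tested comparisons, edgeR called 0, and 4 of 165 alternatives other than leaving out a library passed the limits, as did 0 of 486 fits without 1 library. These 4 were all CSLG1: -3.07 in short-internode dwarf relatives against DMSO plants and 2.17 in virescent plants against relatives with DESeq2, and -1.78 with DESeq2 and -1.77 with 1 fit over all groups in green plants without variegated progeny against DMSO plants. With all labelled libraries CSLG2 turned to -0.13 in short-internode dwarf plants against relatives. Replicate numbers were not taken to pair plants. Deviations of same-numbered plants over all genes gave r of -0.398 to 0.614 (27 pairs, 12 above 0.1). In BR-like dwarf plants with relatives these were 0.309, 0.45, 0.123 and 0.0977, and in virescent plants with relatives -0.0885, -0.369 and -0.0724. Plants of unlike number were not compared, so these values do not settle pairing. The replicate block turned CSLG3 in green plants with variegated progeny against DMSO plants to -0.76 and ended the call of CSLG3 in BR-like dwarf plants against relatives (-3.91), with 34 of 36 member values keeping direction and call. With green plants of the same M2 family, a choice made after seeing the data, CSLG1 turned to 0.67 in green plants with against without variegated progeny. The cause was not tested.

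Without 1 library each, CSLG2 ranged from -6.56 to -3.84 and CSLG3 from -4.24 to -3.60 in BR-like dwarf plants against relatives. There edgeR called CSLG3 in 18 of 18 such fits and CSLG2 in 0 of 18. DESeq2 and 1 fit over all groups called CSLG2. This contrast chose the members, so these calls reuse the values of the choice and are a description, not a test. CSLG2 ranged from -0.74 to 0.48 and CSLG3 from -0.67 to 3.08 in green plants with against without variegated progeny, and from -0.73 to 1.16 and -1.87 to 1.87 in the same plants against DMSO plants. CSLG2 ranged from -0.18 to 1.06 in green plants without variegated progeny and from -0.61 to 1.41 in virescent relatives, and CSLG3 from -0.073 to 0.90 in virescent plants, all against DMSO plants.

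The mean of CSLG1 over the series was 1.01 with a pseudocount of 1 and 0.20 with 0.25, in log2(CPM + pseudocount). The r of CSLG1 with CSLG3 stayed past an adjusted permutation p of 0.05 in each alternative. Of the listed CESA and CSL genes, DESeq2 called 8 in virescent plants against relatives (edgeR 5), 3 in short-internode dwarf plants (edgeR 1) and 3 in virescent relatives (edgeR 0) against DMSO plants, and 1 or 2 in 5 comparisons where edgeR called 0.

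DESeq2, edgeR and the replicate block called, over all genes, 311, 17 and 6 in BR-like dwarf plants against relatives, 974, 522 and 115 against DMSO plants, 11, 0 and 0 in these relatives, 45, 5 and 1 in short-internode dwarf plants against relatives, 819, 301 and 502 against DMSO plants, and 143, 0 and 0 in these relatives. The same order gave 1268, 569 and 511 in virescent plants against relatives, 1005, 527 and 179 against DMSO plants, 184, 43 and 63 in these relatives, 228, 163 and 0 between green plants, and 427, 96 and 1 with and 206, 44 and 1 without variegated progeny against DMSO plants. The low counts of the members limit the precision of every value here.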

Other observations

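In CSLG1 and CSLG3 all lines of control plants overlapped. CSLG1 averaged 1.02 ± 0.273 CPM in DMSO line C13, 2.37 ± 1.5 CPM in line C23 and 1.71 ± 1.33 CPM in line C4_8 (SD, n = 3 each). CSLG3 averaged 1.51 ± 0.849, 2.35 ± 0.993 and 1.57 ± 1.05 CPM in the same lines. In the variegated line, CSLG1 averaged 0.928 ± 0.384 CPM in family 5A_2 (n = 4), 0.287 ± 0.238 CPM in 5A_3 (n = 4) and 0.229 ± 0.117 CPM in 5A_58 (n = 6, with the white plant). No test was run on these families.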
